A study of Mus musculus with 2 samples.

Results

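The genes described here mark B cells and antibody-secreting plasma cells, and were measured in TR1 cells (type 1 regulatory T cells, which make IL-10) of the mouse small intestine, 1 sample per genotype. They were Ighm, Igha, Cd79a, Cd79b, Ms4a1, Blnk, Mzb1, Sdc1 and Fcmr, 9 of the 19937 genes that the array annotation names by a single symbol. The members were chosen by the measured difference between these same samples, in which Ighm and Igha had differed in direction, so every value below is a description of these arrays. The impaired sample came from mice with the CD4-DNIL-10R transgene, by its name a dominant-negative IL-10 receptor driven from Cd4 regulatory sequences. The wildtype sample came from mice with an intact receptor. All mice had been given 15 μg of anti-CD3 antibody (clone 2C11) by intraperitoneal injection, 2 times with a day between, and were killed 4 or 48 hours after the last dose. Which time belongs to which sample, the number of mice in a sample, their age and strain, and how the cells were sorted are not stated in the labels.

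Each genotype was measured on 1 array, so there was no spread between replicates and no difference was tested. This number of arrays limits how precise any value can be. Values are log2 RMA expression, in which a step of 1 is a doubling of signal, and differences are impaired minus wildtype. A gene was said to be past the floor when its brighter sample reached 6.91, the median signal over all probe sets. Of 11124 genes past the floor, 162 were at least 2-fold higher in the impaired sample (1.46%) and 22 at least 2-fold lower (0.198%). The 10 TR1 markers were all past the floor in both samples, with differences between -0.22 and 0.10. Among them Cd4 stood at 13.18 in the impaired sample against 13.14 in wildtype, and Itga2 (CD49b, a surface marker of TR1 cells) at 9.90 and 9.80.

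A B cell carries its antibody on the surface as a receptor. The heavy chain, first of the IgM class encoded by Ighm, pairs with a light chain and signals through CD79A and CD79B to the adaptor BLNK. After class switching the heavy chain locus is cut and joined so that a downstream constant gene, such as Igha for IgA, replaces Ighm. In the intestinal wall most plasma cells secrete IgA, which is joined into dimers by the J chain and carried through enterocytes by the receptor encoded by Pigr.

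Promoters are shown to describe the sequence before the members' start sites. They cover the 3 members with a window from the RefSeq promoter table (GRCm38.p6) and a signal past the floor in at least 1 sample. Of the 9 members, 4 had a window taken (Cd79a, Blnk, Sdc1 and Fcmr), and Cd79a was left out by the floor alone. No window was taken here for the other 5, Mzb1 among them, which does not show that the table lacks them. Each line is the 250 bases before the gene's start, read 5′ to 3′ on the gene's own strand. Capitals mark matches, on either strand, to motifs bound by factors of B cells: the octamer ATGCAAAT, the EBF core CCCNNGGG, the PU box GAGGAA and the E2A E-box CAGGTG.
Blnk (chr19:40994222-40994471, minus strand): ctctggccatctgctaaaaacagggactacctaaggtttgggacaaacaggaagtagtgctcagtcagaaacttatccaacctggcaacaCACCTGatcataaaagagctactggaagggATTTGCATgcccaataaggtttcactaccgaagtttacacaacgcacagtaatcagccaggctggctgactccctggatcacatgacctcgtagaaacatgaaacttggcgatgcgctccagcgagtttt
Sdc1 (chr12:8771146-8771395, plus strand): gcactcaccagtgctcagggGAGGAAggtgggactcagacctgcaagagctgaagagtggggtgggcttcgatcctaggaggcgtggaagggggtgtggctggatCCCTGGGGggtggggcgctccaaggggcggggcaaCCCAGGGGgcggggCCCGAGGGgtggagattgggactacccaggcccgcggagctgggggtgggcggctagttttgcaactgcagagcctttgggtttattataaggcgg
Fcmr (chr1:130865527-130865776, plus strand): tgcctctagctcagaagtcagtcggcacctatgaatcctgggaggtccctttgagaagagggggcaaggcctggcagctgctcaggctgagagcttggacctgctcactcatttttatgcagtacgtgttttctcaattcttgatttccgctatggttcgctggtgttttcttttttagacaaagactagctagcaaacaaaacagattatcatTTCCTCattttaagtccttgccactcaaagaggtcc

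The Blnk window held an octamer, read as ATTTGCAT from base 130 before the start, and an E-box from base 160. The octamer was found in 1.6% of 32851 promoter windows of the same length, and the E-box in 17.2%. The Sdc1 window held 3 matches to the EBF core, from bases 145, 110 and 96, and a PU box from base 230. It was 66.0% G and C, against a median of 52.4% over all windows, and the EBF core, itself made of G and C, was found in 11.8% of windows. The Fcmr window held a PU box from base 36, a motif of 23.3% of windows, and that of Cd79a, which is not shown, a PU box from base 140 and an E-box from base 154. In these 4 windows no motif was shared by all genes, and 1 window held the octamer. A match describes the letters and does not show that a factor binds there.

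Of the 9 members, 7 were brighter in the impaired sample and 2 dimmer. Over all 19937 genes 51.5% were brighter. The median difference of the 9 was 0.54, against 0.01 over all genes. Past the floor were 6 members (Ighm, Igha, Cd79b, Blnk, Sdc1 and Fcmr), of which 5 were brighter, where 50.2% of all genes past the floor were. Fcmr passed only through its impaired value, and Cd79a, Ms4a1 and Mzb1 were under the floor in both samples. At least 2-fold higher was Ighm alone, and 0 members were 2-fold lower. At least 1.5-fold higher were 4 members past the floor (Ighm, Blnk, Sdc1 and Cd79b), a size reached by 5.89% of genes past the floor. Since the members were chosen from this contrast, these counts support nothing beyond their values. In bulk samples, more cells of a type and more RNA per cell cannot be told apart.

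**Figure D1:**
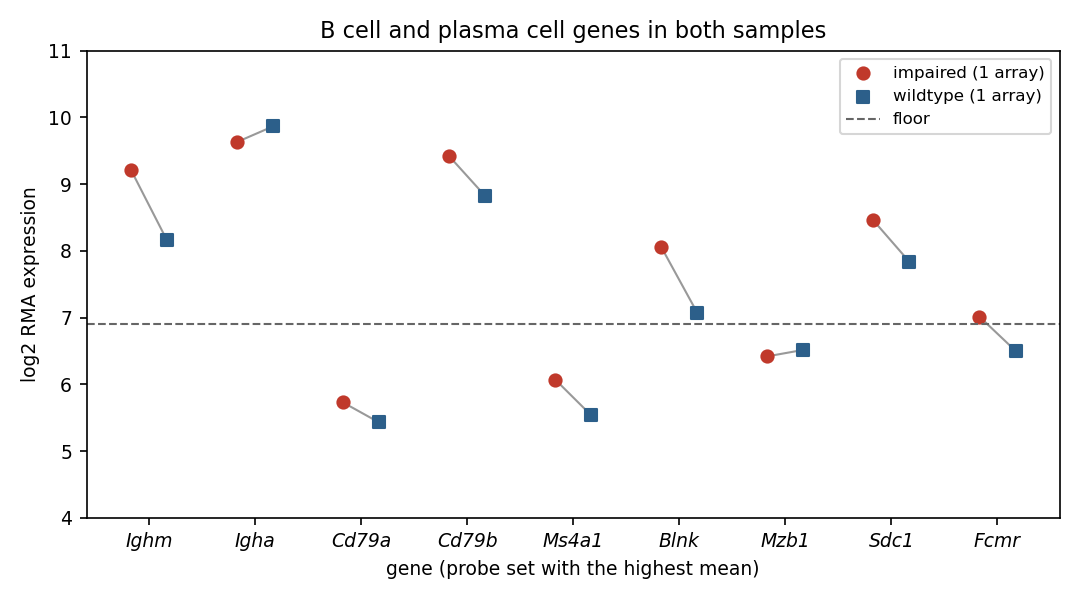
Log2 RMA expression of the 9 genes in the impaired sample (circles) and the wildtype sample (squares), 1 array each, with the floor at 6.91 as a dashed line. The circle lies above the square for 7 genes and below it for Igha and Mzb1, and both values of Cd79a, Ms4a1 and Mzb1 lie under the floor.

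Ighm, the constant gene of the IgM heavy chain, stood at 9.22 in the impaired sample and 8.16 in the wildtype sample. The difference of 1.06 (2.08-fold) placed it among the 125 highest of the genes past the floor (1.12%). After adding 32 to both linear signals it was 0.98, short of 2-fold. Its other probe sets, 2 in number, were also brighter in the impaired sample. They read 7.95 in the impaired against 7.50 in the wildtype sample, and 8.31 against 6.42. The differences of the 3 probe sets thus ran from 0.45 to 1.89 (1.37-fold to 3.70-fold), and the probe set with the largest one was under the floor in the wildtype sample.

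Igha, the constant gene of the IgA heavy chain, stood at 9.63 in the impaired sample and 9.87 in the wildtype sample. The difference of -0.24 (1.18-fold dimmer) was well inside the middle 95% of all genes past the floor, which ran from -0.51 to 0.85. The second Igha probe set went the other way by a smaller amount, at 7.35 in the impaired sample against 7.22 in wildtype (0.13). The direction given for Igha therefore came from 1 of its 2 probe sets, and the mean of both was -0.05. The difference of Ighm exceeded that of Igha by 1.29 on the log2 scale.

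The annotation behind these names differed between the heavy chain genes. Both Igha probe sets list the same 7 sequence accessions, while the 3 Ighm probe sets list 8, 12 and 6, and only the second and the third share an accession, 1 in number. None of the accessions of Ighm or Igha is a RefSeq transcript, whereas each of the other 7 members lists 1. Messages of the heavy chain hold a variable and a constant part, and the annotation does not say which part these probes match. The RefSeq table places both genes on chromosome 12 with 6 other heavy chain constant genes between them (Ighd, Ighg3, Ighg1, Ighg2b, Ighg2c and Ighe).

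A further 4 heavy chain probe sets carry several symbols, Igha among them, and cannot be given to a gene. All 4 were brighter in the impaired sample. The pair listed for Igha with a single variable gene read 9.49 in the impaired against 7.18 in the wildtype sample, and 7.997 against 6.98. The pair listed for Igha, Ighg3 and variable genes read 10.56 in the impaired against 9.19 in the wildtype sample, and 10.10 against 9.02. The differences ran from 1.02 to 2.31 (2.03-fold to 4.96-fold). These were on the opposite side of 0 from the probe set that stands for Igha. Over all 34760 probe sets, 0.682% were at least 2-fold higher in the impaired sample and 0.921% at least 2-fold lower.

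**Figure D2:**
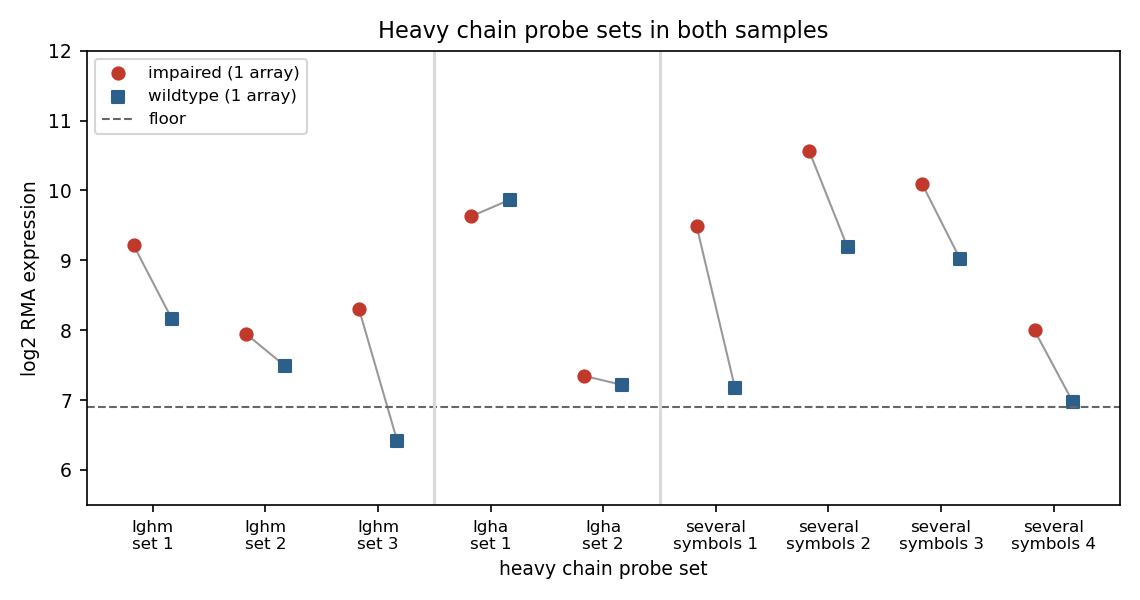
Log2 RMA expression of 9 heavy chain probe sets in the impaired sample (circles) and the wildtype sample (squares), 1 array each: 3 of Ighm, 2 of Igha and 4 annotated with several symbols that include Igha. Sets of a gene are numbered by falling mean and the last 4 by falling difference. Only the first Igha probe set has its circle below its square.

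Differences of light chain genes spread more widely than those of the members. Of 11 immunoglobulin genes with a single symbol that are not members, 9 were brighter in the impaired sample, where 51.5% of all genes were. At least 2-fold higher were 3, all past the floor and all kappa variable genes, a size reached by 1.46% of genes past the floor. Igkv6-20 stood at 8.85 in the impaired sample against 7.26 in wildtype (1.58). A second kappa variable gene stood at 10.31 in the impaired sample against 8.81 in wildtype (1.502). Kappa probe sets that list the symbol of this second gene together with other symbols differed by 0.74 and -2.15, so its direction was not shared by all of them. The third stood at 6.92 in the impaired sample against 5.60, under the floor, in wildtype (1.32). Igkv19-93 differed by 0.996 and Igkv10-96 by 0.84. The 8 kappa variable genes all lay above 0, from 0.07 to 1.58, although a second probe set of Igkv19-93 stood at -0.01. Each clone of B cells uses its own variable genes, and variable genes have close relatives, so single values here are uncertain.

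Probe sets of the light chains with several symbols went both ways. Of 10 for the kappa chain 7 were brighter in the impaired sample and 3 dimmer, from -2.15 to 2.25. The lowest read 6.81 in the impaired against 8.97 in the wildtype sample, and the highest 10.22 against 7.97. Both lambda chain probe sets were dimmer, at 9.99 in the impaired against 10.78 in the wildtype sample and at 6.97 against 7.16. Igll1, a surrogate light chain of B cell precursors, differed by -0.29, and Ighg3, a constant gene of the IgG class, stood under the floor, at 4.79 in the impaired sample against 5.10 in wildtype. Igll1 and Ighg3 were chosen after their values were seen.

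Jchain, which encodes the J chain of secreted IgA and IgM, was bright and nearly equal in both samples. It stood at 10.17 in the impaired sample against 10.01 in wildtype, a difference of 0.17. Immunoglobulin signal was thus present in both samples, with Jchain, Igha and Ighm all past the floor in each.

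**Figure D3:**
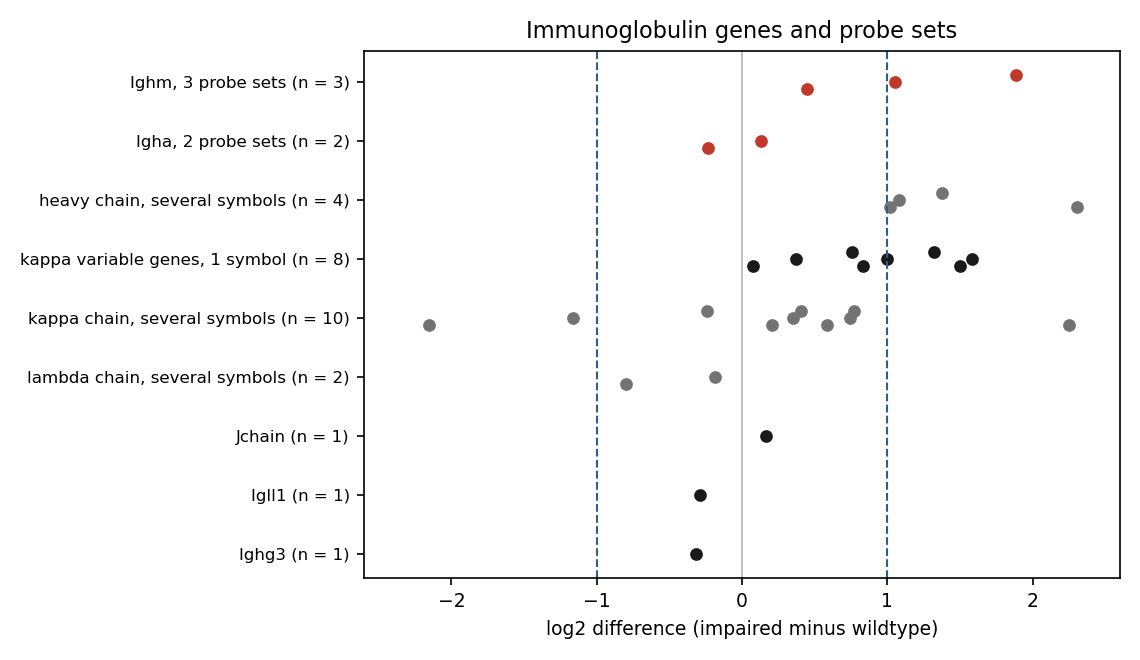
Log2 difference (impaired minus wildtype) of each immunoglobulin gene or probe set, by chain, with Ighm and Igha in red and 2-fold marked by dashed lines. The probe sets of Ighm and those of the heavy chain with several symbols lie to the right of 0, the 2 of Igha on either side, the 8 kappa variable genes lie to the right, and kappa probe sets with several symbols spread from -2.15 to 2.25.

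The signalling partners of the surface receptor were brighter in the impaired sample by less than 2-fold. Cd79b, a signalling subunit of the receptor, stood at 9.42 in the impaired sample against 8.82 in wildtype (0.60, 1.51-fold). Cd79a, the other subunit, was under the floor in both, at 5.73 and 5.43 (0.30), so that only Cd79b of this heterodimer passed the floor. Blnk, the adaptor downstream of the receptor, stood at 8.06 in the impaired sample against 7.07 in wildtype. Its difference of 0.99 (1.98-fold) fell just short of the 2-fold line that Ighm passed with 1.06. Blnk is also made by macrophages.

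Of the wider list of receptor and signalling genes 14 of 18 were measured and 8 were past the floor. Of these, 6 were brighter in the impaired sample and 2 dimmer, with a median of 0.72. Over all genes past the floor 50.2% were brighter and 1.46% at least 2-fold higher. The list includes the members Ighm, Cd79a, Cd79b and Blnk, which were chosen from this contrast. At least 2-fold higher were Ighm and Cd81, a tetraspanin of the B cell co-receptor that many cell types carry, at 10.52 in the impaired sample against 9.26 in wildtype (1.26). Pik3ap1, an adaptor for PI3 kinase in B cells and myeloid cells, differed by 0.84. Vav1 and Dapp1, which T cells also express, differed by -0.07 and -0.10. Cr2, the complement receptor of mature B cells, was under the floor in both, at 6.18 in the impaired sample against 6.41 in wildtype.

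The surface receptors among the members were dim. Ms4a1, which encodes CD20, the standard surface marker of B cells, stood at 6.07 in the impaired sample against 5.54 in wildtype (0.54), under the floor in both. Fcmr, the receptor for the Fc part of IgM, stood at 7.01 in the impaired sample against 6.50 in wildtype (0.51). Both differences are of dim probe sets, where RMA signal keeps part of its background and compresses folds. Of 19 B cell surface receptors measured 10 were past the floor, with a median of 0.24, and 0 passed 2-fold. Fcmr, Cd40 and Fcgr2b passed only through their impaired values, and Ly6d only through its wildtype value. Cd24a, which epithelial cells also carry, was the highest at 0.95, and Tnfrsf13c, the receptor for BAFF, differed by 0.36. Fcgr2b, the inhibitory receptor for IgG, differed by 0.74, at 6.907 in the impaired sample, just at the floor, against 6.17 in wildtype. Cd37 and Cd72, among the brightest of the list, differed by 0.04 and 0.06.

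Lineage factors of B cells differed by less than 2-fold. Pax5 and Ebf1, which set and hold B cell identity, were under the floor in both samples. Pax5 stood at 6.32 in the impaired sample against 6.08 in wildtype, and Ebf1 at 5.85 and 5.497. Spi1, which encodes PU.1, a factor of B cells and myeloid cells, had the largest difference of the list, also under the floor in both, at 6.74 in the impaired sample against 5.95 in wildtype (0.79, 1.73-fold). It was chosen after its values were seen. Pou2af1, a co-activator on octamer promoters, was past the floor at 7.71 in the impaired sample against 7.47 in wildtype (0.24). Of 13 factors 10 were past the floor, 8 brighter and 2 dimmer, with a median of 0.31 and 0 past 2-fold. Over all genes past the floor 50.2% were brighter. Spib, Bcl11a and Id3 passed only through their impaired values, and 7 factors reached the floor in the wildtype sample. All 13 measured factors, without the floor, split 11 brighter and 2 dimmer (median 0.34). Pou2f2, the octamer factor OCT2, differed by 0.53, and Spib, Irf8 and Bcl11a by 0.37 each, while Ikzf3, the brightest, differed by -0.11.

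**Figure D4:**
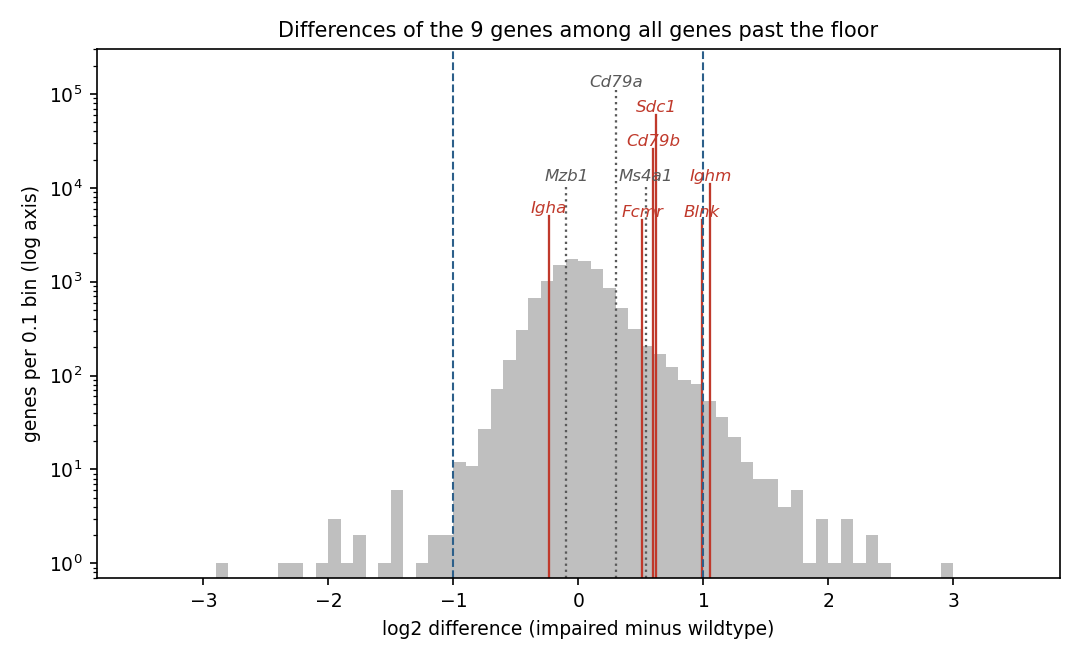
Log2 differences (impaired minus wildtype) of the 11124 genes past the floor, as a histogram with a log count axis, with the 9 genes as lines (dotted where the gene is under the floor in both samples) and 2-fold as dashed lines. Blnk and Ighm lie on either side of the upper 2-fold line, and Igha and Mzb1 lie left of 0.

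The plasma cell members differed in direction. Sdc1, which encodes the plasma cell surface proteoglycan CD138 and is also made by epithelial cells, stood at 8.46 in the impaired sample against 7.84 in wildtype (0.62, 1.54-fold). Mzb1, an endoplasmic reticulum protein that aids antibody assembly, stood at 6.42 in the impaired sample against 6.52 in wildtype (-0.10), under the floor in both. Tnfrsf17, the plasma cell survival receptor BCMA, was also under the floor, at 6.04 in the impaired sample against 5.92 in wildtype. The plasma cell factors Prdm1 (-0.20), Irf4 (0.28) and Xbp1 (0.15) are expressed by activated T cells too. Of the 14 plasma cell factors and surface genes 11 were past the floor, 6 brighter and 5 dimmer, with a median of 0.05 (-0.004 under loess centring), and Sdc1 was the highest of them.

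Genes of antibody assembly and secretion lay on both sides of 0. Of 15 past the floor 6 were brighter and 9 dimmer in the impaired sample (median -0.21), where 50.2% of all genes past the floor were brighter, and 0 passed 2-fold. Under loess centring 7 were brighter and 8 dimmer (median -0.15). Pdia6, a protein disulfide isomerase, differed by -0.46 and Sec11c, a signal peptidase subunit, by -0.45. Derl3 and Txndc5, folding and quality control proteins abundant in plasma cells, differed by 0.36 each. Hspa5 (BiP), which all secreting cells make, stood at 12.55 in the impaired sample against 12.75 in wildtype (-0.21).

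Genes that induce or carry IgA had a median of 0.02 over 13 past the floor, 7 brighter and 6 dimmer. The 3 highest were Pigr, Ccl25 and Ccl28, which the intestinal epithelium makes. Pigr stood at 11.70 in the impaired sample against 10.57 in wildtype (1.14), Ccl25, a chemokine that draws CCR9-bearing cells to the small intestine, at 9.97 and 8.90 (1.07), and Ccl28, a chemokine for IgA plasma cells, at 8.56 and 7.56 (0.998). Ccr9 itself, which gut T cells share, differed by 0.02. Germinal centre genes had 5 past the floor, with a median of -0.04 and Bcl6 lowest at -0.34.

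MHC class II genes, which B cells, dendritic cells, macrophages and enterocytes express, were all brighter among the 7 past the floor, with a median of 0.77. Over all genes past the floor 50.2% were brighter. Without the floor all 8 measured were brighter (median 0.73). Cd74, the invariant chain, stood at 10.74 in the impaired sample against 9.58 in wildtype (1.16). H2-Eb1 differed by 0.99, H2-Ab1 by 0.80 and H2-Oa by 0.77, the last with a wildtype value of 6.44, under the floor.

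**Figure D5:**
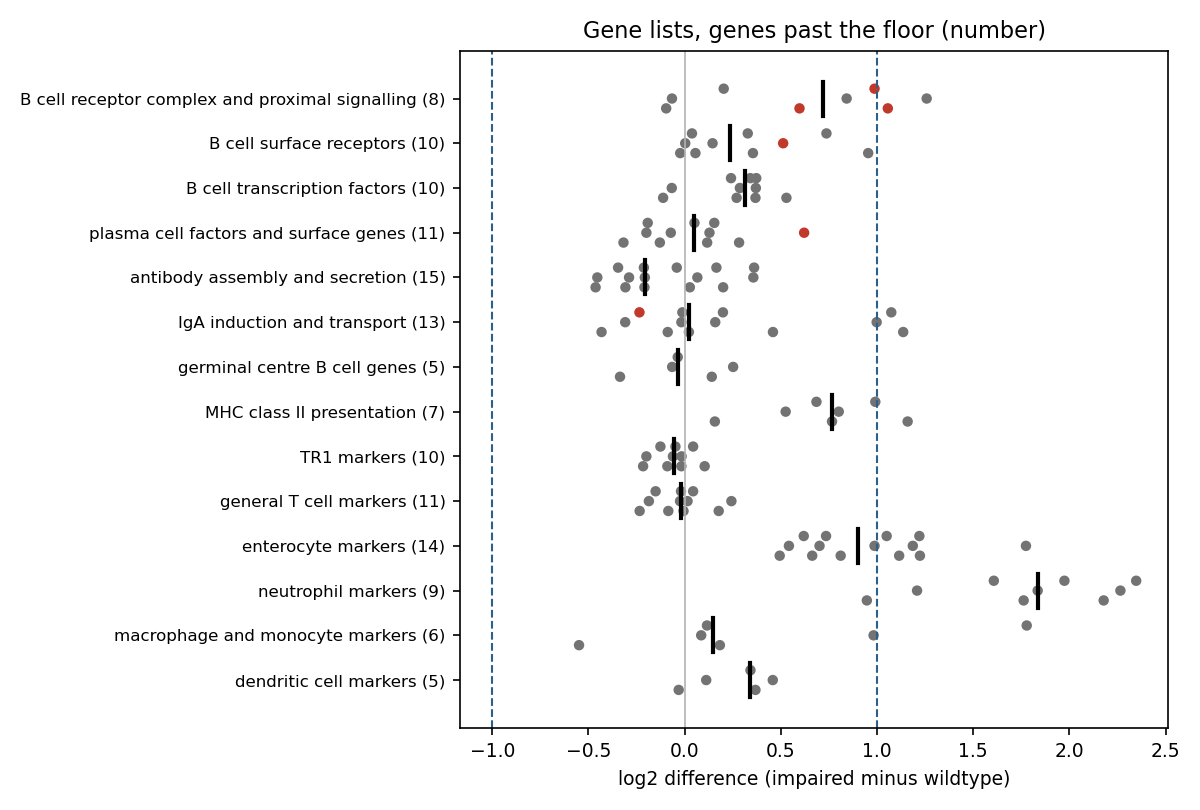
Log2 difference (impaired minus wildtype) of each gene past the floor, by list, with the number of genes in brackets, members in red, list medians as black bars and 2-fold as dashed lines. Medians run from -0.21 for antibody assembly and secretion to 1.83 for neutrophil markers, and TR1 and general T cell markers lie close to 0.

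Markers of other cells differed in the same samples. All 14 enterocyte markers were past the floor and brighter in the impaired sample (median 0.90), and the log2 of their summed signal was 15.11 in the impaired against 14.27 in the wildtype sample. Sis was the highest at 1.77. Of 13 neutrophil markers 9 were past the floor, all 9 brighter (median 1.83), where 50.2% of all genes past the floor were. Only 6 reached the floor in the wildtype sample, so the others passed through their impaired value alone. Over all 13 measured, 11 were brighter and 2 dimmer (median 1.61). The log2 summed signal was 12.79 in the impaired against 11.16 in the wildtype sample. Mmp8 was highest at 2.35, with a wildtype value of 6.545, under the floor. Elane and Mpo, of early neutrophil stages, were under the floor in both samples, as were Camp and Csf3r. All of these were named here after their values were seen. Macrophage and monocyte markers, 6 of 11 past the floor, had 5 of these 6 above 0 (median 0.15), and 10 of the 11 measured lay above 0. Lyz2 differed by 1.78, Cd14 by 0.98 and Cybb, the only dimmer marker, by -0.55. Their log2 summed signal, to which Cybb and Cd68 give the most, was 11.98 in the impaired sample against 11.999 in wildtype. Dendritic cell markers, 5 of 13 past the floor with 4 of them above 0 (median 0.34), had a log2 summed signal of 11.71 in the impaired sample against 11.42 in wildtype. General T cell markers, 11 of 11 past the floor, had a median of -0.02 (0.027 under loess centring). Sdc1, Cd24a and Pigr are shared with epithelium and Blnk with macrophages, and the part of these cells in the differences was not tested.

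The genes nearest to Ighm in level were Tmprss2, Myo7b and Slc26a6, at distances of 0.07, 0.12 and 0.14 over the 2 log2 values. Tmprss2 stood at 9.22 in the impaired sample against 8.23 in wildtype. Nearest to Igha were Ttc17, Ecpas and Oxsr1, at distances of 0.01 to 0.02, with differences of -0.22 to -0.23. Over 2 samples this likeness says only that the signals match.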

How the data were processed

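RNA from both samples was hybridised to Affymetrix arrays after biotin labelling, per the labels' protocols. The deposited table holds log2 values of 34760 probe sets made by the authors with affy and RMA, per the submitters' processing notes, which corrects background, equalises the distributions of the arrays and summarises probes. Versions and genome build are not given in the sources used. Values ran from 3.84 to 14.7 (impaired) and 3.86 to 14.6 (wildtype), with medians of 6.92 and 6.89. Scanner files were not used here.

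Names came from GEO's platform annotation: 21640 probe sets had 1 symbol, 1321 several and 11799 none. A gene took its probe set with the highest mean. The members and the 14 gene lists were chosen with earlier results of these data known. Listed genes without a probe set of 1 symbol were not analysed here. Named were all members, up to 4 genes of each list with the largest differences, its brightest genes, a set of defining markers and the genes nearest in level.

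The floor was 6.91, and 2-fold the size rule. Alternatives were loess centring (fraction 0.3), an offset of 32 on the linear scale, the mean or the dimmest probe set of a gene, no floor, a floor of 8.86 (75th percentile) and a 1.5-fold rule. On simulated data the recovery of planted differences was tested with and without loess centring. The choice of probe set was tested on a small made-up table. The other steps were not tested in this way. Python 3.11.15, numpy 2.4.6, pandas 2.3.3, statsmodels 0.14.6 and matplotlib 3.10.9 were used.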

Additional observations from a re-analysis of the deposited data

How the results depend on the processing

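With 1 array per genotype, a value was taken as moved when it shifted by more than 0.25, the scaled median absolute deviation of all differences past the floor. The difference of Ighm stayed between 0.98 (offset) and 1.13 (mean of its probe sets) except with its dimmest probe set, where it was 1.89. That of Igha stayed below 0 under loess centring (-0.17), the offset (-0.23) and the mean of its probe sets (-0.05), and was 0.13 with its dimmer probe set. The excess of Ighm over Igha was 1.76 when the dimmest probe set was taken for both genes at once. The number of members at least 2-fold higher was 0 with the offset and 4 with the 1.5-fold rule. The median of the 9 members stayed between 0.39 and 0.54, and 7 or 8 of them were above 0 throughout. Of the list medians, that of plasma cell factors turned to -0.004 under loess centring and -0.072 with the stricter floor, that of germinal centre genes to 0.069 with no floor, and that of general T cell markers to 0.027 under loess centring. TR1 markers split 2 above and 8 below 0 as reported and 5 and 5 under loess centring. The median of receptor and signalling genes was 0.34 with no floor. Over all lists and settings, 79 other list medians kept their sign and moved by less than 0.25. That cut is about as large as some of these medians. With the stricter floor the median of B cell surface receptors was 0.047, against 0.24 as reported. That of B cell transcription factors was 0.10 with the stricter floor, against 0.31 as reported. No paired analysis was possible because each genotype has 1 sample. Dim probe sets (Cd79a, Ms4a1, Mzb1 and the wildtype value of Fcmr) limit what can be read from those genes.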
